A study of Homo sapiens with 14 samples.

Results

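The genes described here are 47 genes of mitosis and chromosome segregation, chosen by name from their known roles to cover the steps from mitotic entry to the division of the cell. The choice was made with earlier results of these data known. The shares of changed genes given below are therefore a description and not an independent test of the list. All 47 had a row in each of the 3 tables of the study, among 15025 gene rows in each MV4;11 table and 15031 in the EOL-1 table, and all 47 passed the filter on low counts in every comparison. Transcripts were measured by RNA-seq in 14 libraries, which form 7 groups of 2. MV4;11, a human acute leukaemia line of monocytic character, carried either the control labelled EV or shEZH2, a short hairpin RNA against EZH2. In a second set it carried sgEV or a guide RNA against the cMyc gene, sgcMyc_1 or sgcMyc_5. EOL-1, a line from a human eosinophilic leukaemia, carried sgEV or sgEZH2. By the column names, each EZH2 depletion rested on a single hairpin or guide. An effect of EZH2 loss and an effect of that reagent itself cannot be told apart. All 7 groups, controls included, received doxycycline at 1 µg/ml for 4 days, so its own effect is shared by every group and was not measured. EZH2 is the methyltransferase of the Polycomb repressive complex PRC2, and cMyc is a transcription factor of growth genes. The study's title places both proteins in gene activation, and each perturbation was compared with its own control to show how the division genes stood when one of the regulators was targeted. Nothing in the labels ties the libraries of a group to separate cultures or clones, and the p-values therefore reflect a spread that may be technical only.

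Mitosis is driven by cyclin B with CDK1, and it ends when the anaphase-promoting complex with CDC20 marks securin and cyclin B for destruction and separase opens the cohesin rings that hold sister chromatids. Kinetochores tie the chromosomes to spindle microtubules, and the spindle checkpoint withholds CDC20 until every kinetochore is attached. Most of these genes are transcribed in a wave late in the cell cycle: the MuvB core, as part of the DREAM repressor in resting cells and with B-MYB and FOXM1 in dividing cells, binds a short promoter motif called the CHR (cell cycle genes homology region), often beside CCAAT boxes bound by NF-Y. Since the wave follows the cycle, the levels in a culture also follow how many of its cells are dividing. In these bulk samples, fewer cells in mitosis and less RNA per cell cannot be told apart.

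The promoter motif is shown first because it is what most of the genes share apart from their role. RefSeq promoters (build GRCh38.p14, from 250 bases before to 50 bases after the transcription start, 300 bases in all) were at hand for 39 of the 47 genes. Both strands were searched, and a match was counted whether or not it touched a match of another motif. A CHR element, searched as TTTGAA or TTCGAA, lay in 28 of the 39 windows (71.8%), beside 16.4% of 35116 promoters of the same length. A CCAAT box, searched as CCAAT, lay in 29 (74.4%, beside 34.6%), and both together in 21 (53.8%, beside 6.4%). The E2F site, searched as TTTGGCGC, TTTGCCGC, TTTCGCGC or TTTCCCGC, lay in 3 windows (7.7%, beside 3.3%). The E-box CACGTG, the letters bound by MYC with MAX, lay in 5 (12.8%, beside 7.3%). The windows had a median GC content of 61.0%, beside 58.7% over all promoters. These are matches of letters and were not tested as binding sites.

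**Figure D1:**
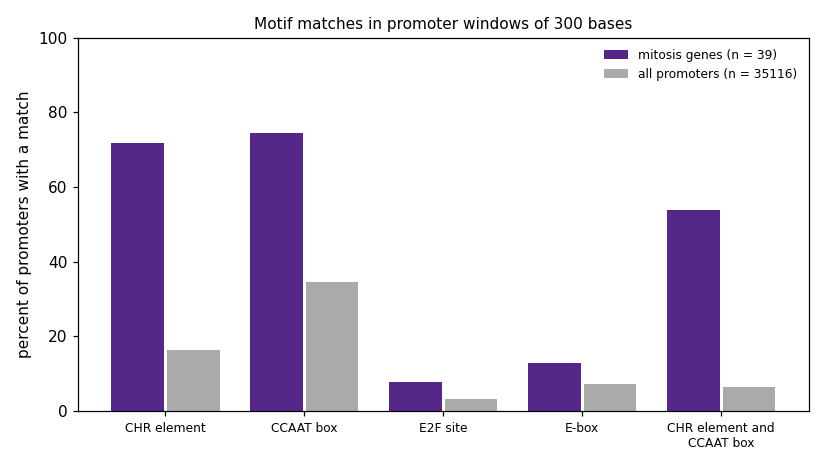
Percent of promoter windows of 300 bases that hold a match to each motif on either strand, for the 39 mitosis genes with a RefSeq promoter (purple) and for 35116 promoters (grey). The CHR element is found in 71.8% of the mitosis genes and in 16.4% of all promoters.

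The 6 sequences printed here are the 150 bases before the start of genes that were lower after EZH2 depletion in both lines. They are given 5′ to 3′ along the gene, from RefSeq, build GRCh38.p14, with the matched letters in capitals (TTTGAA or its reverse complement TTCAAA for the CHR, CCAAT or ATTGG for the CCAAT box, CACGTG for the E-box).
ESPL1 (chr12:53268149-53268298, plus strand): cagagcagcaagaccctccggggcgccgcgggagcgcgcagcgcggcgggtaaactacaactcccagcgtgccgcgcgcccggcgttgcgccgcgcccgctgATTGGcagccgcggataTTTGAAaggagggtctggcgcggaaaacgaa
PLK1 (chr16:23678739-23678888, plus strand): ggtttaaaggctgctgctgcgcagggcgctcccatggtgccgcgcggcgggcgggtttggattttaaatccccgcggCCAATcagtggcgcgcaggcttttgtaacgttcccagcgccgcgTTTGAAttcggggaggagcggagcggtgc
CCNB2 (chr15:59104996-59105145, plus strand): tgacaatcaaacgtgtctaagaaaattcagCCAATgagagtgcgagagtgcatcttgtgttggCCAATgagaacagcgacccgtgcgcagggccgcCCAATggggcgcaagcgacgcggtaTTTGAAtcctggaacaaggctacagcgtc
SMC4 (chr3:160399500-160399649, plus strand): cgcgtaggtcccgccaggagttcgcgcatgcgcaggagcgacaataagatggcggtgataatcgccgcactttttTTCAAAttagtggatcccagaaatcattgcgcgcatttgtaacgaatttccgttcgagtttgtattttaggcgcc
PRC1 (chr15:90994536-90994685, minus strand): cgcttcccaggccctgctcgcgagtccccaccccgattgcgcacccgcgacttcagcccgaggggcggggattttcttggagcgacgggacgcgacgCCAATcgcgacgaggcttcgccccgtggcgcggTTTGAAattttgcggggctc
ANLN (chr7:36389712-36389861, plus strand): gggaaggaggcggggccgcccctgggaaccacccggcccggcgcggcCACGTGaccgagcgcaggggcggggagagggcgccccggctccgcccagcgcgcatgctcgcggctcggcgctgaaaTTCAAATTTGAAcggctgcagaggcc
The CHR letters begin 31 bases before the start in ESPL1, 29 in PLK1, 29 in CCNB2 and 20 in PRC1. In SMC4 they lie on the other strand, 75 bases before the start, and ANLN holds matches on both strands, 26 and 20 bases before it. CCNB2 shows 3 CCAAT boxes in this stretch, while SMC4 and ANLN show none there. Of the 11 genes lower in both lines that had a promoter entry, 9 held a CHR and 7 a CCAAT box, and of the other 28 genes 19 held a CHR and 22 a CCAAT box.

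The targets and the libraries were checked before the genes were compared. EZH2 stood at 73.3 and 75.8 CPM (counts set to equal library size, with TMM factors) in EV and at 9.75 and 9.70 CPM in shEZH2, a log2 fold change of -2.94 ± 0.07 (SE, as for every log2 fold change here). In EOL-1 it fell from 70.7 and 70.4 to 27.8 and 26.1 CPM (-1.39 ± 0.05). The MYC transcript was not lowered by the guides against it, and went up from 658 and 660.4 CPM in sgEV to 866 and 872 CPM with sgcMyc_1 and 818 and 822 CPM with sgcMyc_5 (0.36 ± 0.04, adjusted p = 1.3e-05). EZH2 was lower there in edgeR (-0.19 ± 0.06, adjusted p = 0.018). This fall did not pass with DESeq2 (adjusted p = 0.16) or with spike-in scaling in edgeR (-0.07, adjusted p = 0.55). MYC was higher with shEZH2 (0.25 ± 0.04) and stood at -0.04 ± 0.03 in EOL-1. Protein was not measured in these files, and directions in the cMyc guide comparison are given for the libraries as labelled. Gene counts per library ran from 13313052 to 16274568 in MV4;11 and from 24574102 to 30256823 in EOL-1, and the 47 genes had 93 to 14605 counts each. All 8 myeloid identity markers had rows in each table, and their summed level was 1380 to 1410 CPM in EV and 1530 to 1570 CPM in shEZH2, 1690 to 1720 CPM in sgEV against 4940 to 5360 CPM in the libraries labelled sgcMyc, and 911 to 919 against 2550 to 2580 CPM in EOL-1. LYZ (lysozyme) carried most of these rises: without it the other 7 markers summed to 1194 and 1207 CPM in EV and 1037 and 1064 CPM in shEZH2, to 1536 to 1564 CPM in sgEV and 1556 to 1633 CPM in the libraries labelled sgcMyc, and to 709 and 725 against 922 and 929 CPM in EOL-1. With shEZH2 FLT3 went from 549 and 531 to 404 and 399 CPM and CD68 from 39.1 and 39.5 to 27.3 and 27.4 CPM. MPO and ITGAM also lay lower without overlap. CD33 went the other way, from 66.4 and 68.5 to 77.2 and 77.5 CPM, and in SPI1 and CEBPA the groups overlapped. Of 4 eosinophil markers none had a row in the EOL-1 table. The part of the myeloid genes in the changes below was not tested.

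Together the 47 genes took 0.589% and 0.573% of the gene counts in EV and 0.504% and 0.494% in shEZH2. In EOL-1 they took 0.508% and 0.510% in sgEV and 0.468% and 0.453% in sgEZH2. In both lines the depleted libraries lay below their controls without overlap. The share was 0.446% and 0.449% in sgEV of MV4;11, 0.460% and 0.451% with sgcMyc_1 and 0.464% and 0.447% with sgcMyc_5, where the groups overlapped. The 2 controls of MV4;11 stood further apart than either of them from its perturbed libraries. The share of counts in mitochondrial genes moved with the same groups: 2.18% and 2.23% in EV against 2.79% and 2.80% in shEZH2, 2.47% and 2.41% in sgEV against 3.14% to 3.44% with the guides, and 1.06% and 1.05% against 1.14% and 1.15% in EOL-1. Its part in the changes was not tested.

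**Figure D2:**
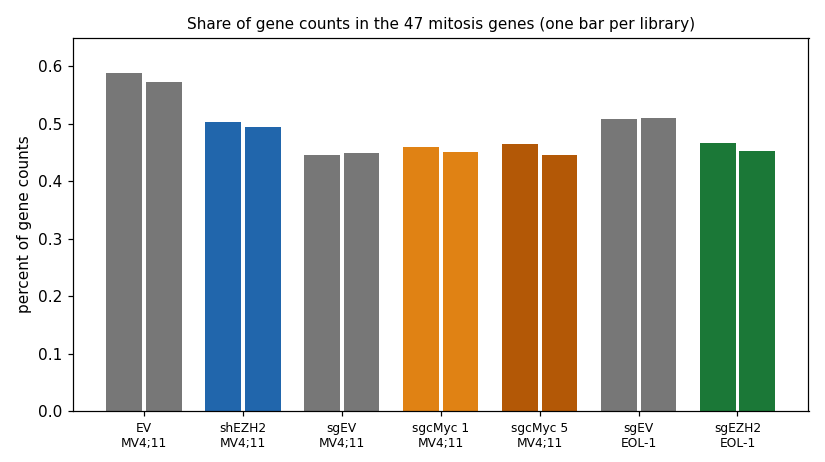
Percent of all gene counts that fell in the 47 mitosis genes, 1 bar per library, for the 7 groups. EV of MV4;11 holds the highest bars (0.589% and 0.573%), and sgEV of MV4;11 lies near the lowest (0.446% and 0.449%).

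With shEZH2 in MV4;11, many mitosis genes fell and none rose. Of the 47 genes, 27 fell at an adjusted p under 0.05 (edgeR, adjusted over all 13591 genes), or 57.4%, where 14.2% of all genes were lower. No gene of the 47 rose in edgeR or DESeq2, where 13.4% of all genes were higher in edgeR. At an unadjusted p under 0.05 the count was also 0. The median log2 fold change of the 47 was -0.18 (all genes 0.00), 46 lay below 0, and the range ran from -0.93 in CDC20 to 0.04 in TTK. In 37 of the 47, both shEZH2 libraries lay below both EV libraries, as they did in 31.7% of all genes. The count of 27 became 15 with DESeq2, 17 with scaling to the spike-in RNAs, and 16 or 14 without shEZH2 library 1 or 2, with no gene higher in any of these. Under all 12 alternatives run, 11 genes fell: CDC20, ANLN, ESPL1, BIRC5, KIF4A, PTTG1, CCNB1, CCNB2, KIF2C, SMC4 and HMMR. Under spike-in scaling 1407 of all genes were lower and 805 higher, in place of 1934 and 1824.

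With sgEZH2 in EOL-1, 27 of the 47 genes fell as well, 57.4% where 11.8% of all 13890 genes were lower, and none rose in edgeR or DESeq2, where 15.1% of all genes were higher. At an unadjusted p under 0.05, 1 rose in edgeR (HMMR). The changes were smaller at their extreme: the median was -0.15 (all genes 0.01) and the range ran from -0.39 in CENPF to 0.15 in HMMR, with 44 genes below 0. In 38 of the 47, both sgEZH2 libraries lay below both controls, as in 29.9% of all genes. The count of 27 became 14 with DESeq2 and 15 or 14 without sgEV library 1 or 2, again with none higher. Under all 11 alternatives run, 9 genes fell: FOXM1, PLK1, BUB1B, KIF11, BUB3, KIF2C, CENPF, ESPL1 and PRC1.

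In the libraries labelled sgcMyc, the mitosis genes split. Against sgEV, taking the mean of both guides, 9 of 47 rose (19.1%, where 18.6% of all 13948 genes were higher) and 4 fell (8.51%, where 18.7% were lower). The share that rose was thus near that of all genes. The median was 0.06 (all genes 0.00), and the range ran from -0.46 in CENPE to 0.37 in ANLN. In 19 genes all 4 guide libraries lay above both sgEV libraries, as in 26.6% of all genes, and in 6 they all lay below, as in 26.7%. Scaling to the spike-in RNAs moved the median of all genes to 0.11 and that of the 47 to 0.18, and gave 15 higher and 1 lower. Over all genes it gave 3136 higher and 1169 lower, in place of 2590 and 2613. Without sgEV library 1, 2 fell, and without sgcMyc_5 library 1 or 2, 14 or 17 rose. CENPE fell, and CDC20, ANLN, BUB1, NUSAP1 and ECT2 rose, under all 14 alternatives run.

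**Figure D3:**
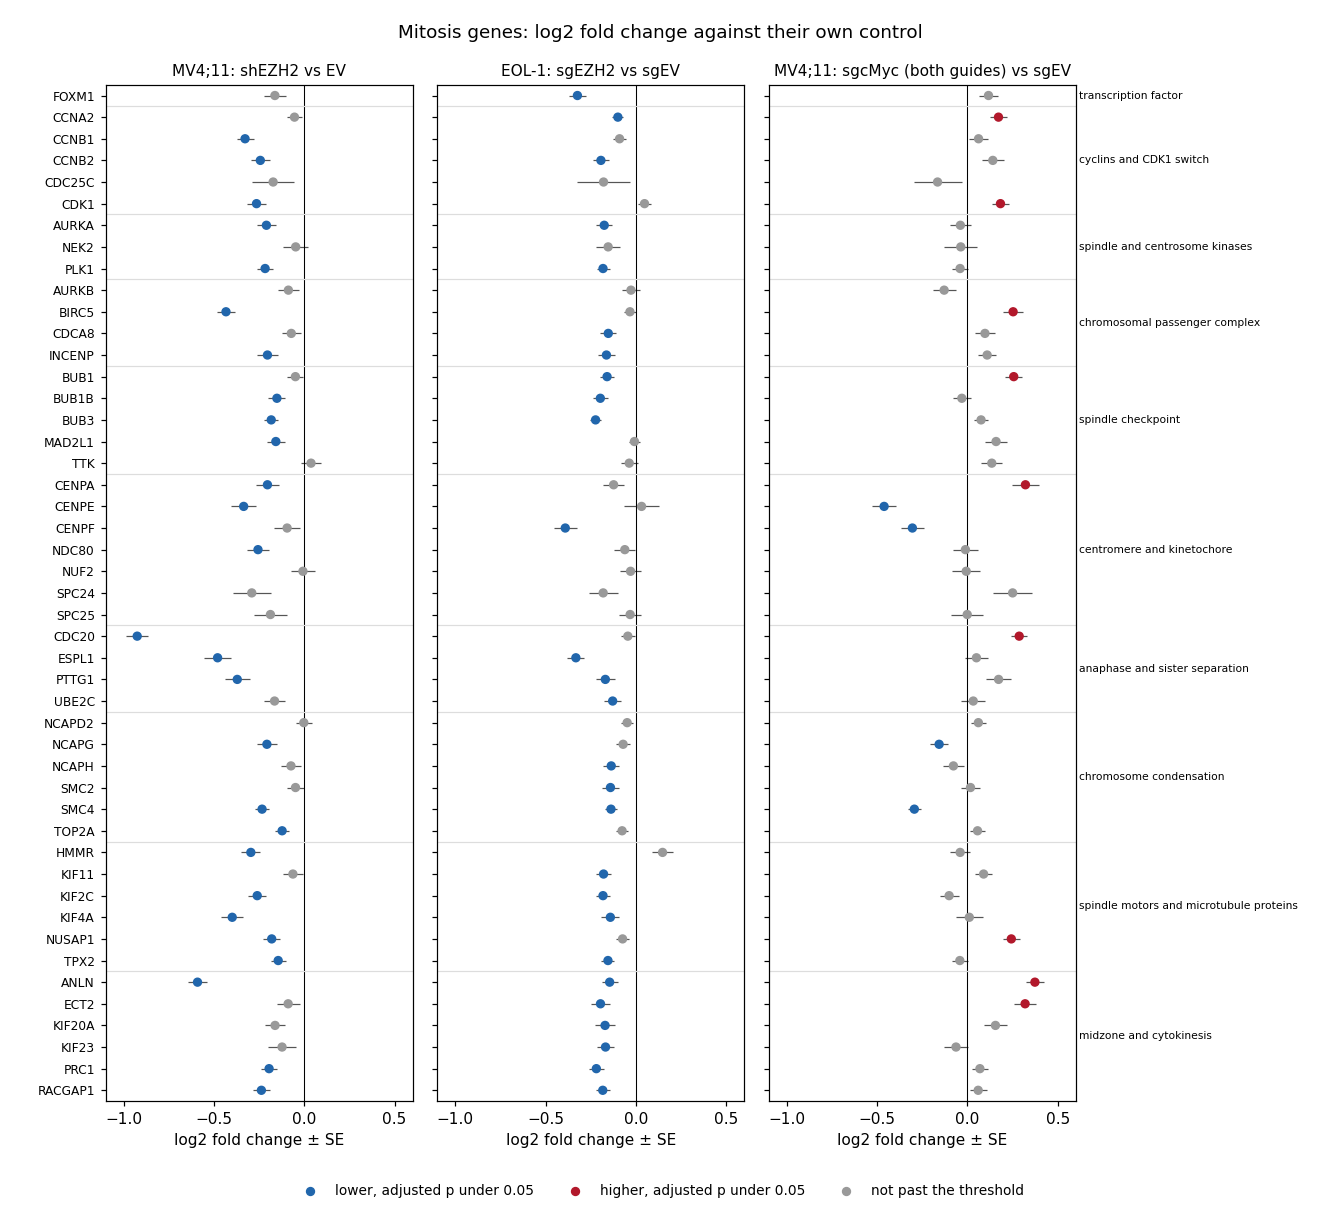
Log2 fold change ± SE of each of the 47 genes against its own control, grouped by role, in the 3 comparisons (2 control libraries in each, 2 or, for sgcMyc, 4 perturbed). Blue points are lower and red points higher at an adjusted p under 0.05, and grey points did not pass. Both EZH2 panels hold 27 blue and no red points, and the sgcMyc panel holds 4 blue and 9 red.

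The members are described by role, with levels in CPM. CPM is not scaled for gene length, so levels are compared between libraries and not between genes. The counts in each role stand against the 57.4% of the 47 that fell in each EZH2 comparison. Of all genes, 14.2% fell with shEZH2 and 11.8% in EOL-1. With the guides, 19.1% of the 47 rose and 8.51% fell, where 18.6% and 18.7% of all genes did. The roles hold 1 to 7 genes each and were not tested as sets. FOXM1, the forkhead factor that activates the late wave, stood at 84.6 and 80.3 CPM in EV and 76.9 and 70.4 CPM in shEZH2 (-0.16 ± 0.06, adjusted p = 0.062), which missed the threshold. It passed with the replicate block and without EV library 2, and its adjusted p was 0.30 with DESeq2. In EOL-1 it stood at 71.5 and 71.4 CPM in sgEV and 58.9 and 55.1 CPM in sgEZH2, among the larger falls in that line (-0.32 ± 0.05, adjusted p = 3.5e-05). The libraries of the groups did not overlap in either line. In sgEV of MV4;11 it stood at 60.7 and 60.7 CPM, and in the libraries labelled sgcMyc at 65.4, 63.0, 70.2 and 64.8 CPM (0.12 ± 0.05, adjusted p = 0.11).

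Among the 5 genes of the cyclin and CDK1 switch, 3 fell with shEZH2, 2 fell in EOL-1 and 2 rose in the libraries labelled sgcMyc. CCNB1, the cyclin B that carries CDK1 into mitosis, stood at 144 and 148 CPM in EV and 114 and 119 CPM in shEZH2, without overlap (-0.33 ± 0.05, adjusted p = 3.9e-04). In EOL-1 its levels were 144 and 145 against 136 and 135 CPM (-0.09 ± 0.04, adjusted p = 0.067), and with cMyc guides 93.8, 94.95, 92.6 and 104 against 90.8 and 93.7 CPM in sgEV (0.06 ± 0.05, adjusted p = 0.40). It thus passed the threshold in the hairpin comparison alone. CCNB2, the other B-type cyclin, fell in both lines: in EOL-1 from 96.7 and 92.7 to 84.4 and 81.1 CPM (-0.19 ± 0.04, adjusted p = 0.0022), and with shEZH2 by 0.24 on the log2 scale. CDK1, the kinase itself, fell with shEZH2 (-0.26 ± 0.05) and rose in the libraries labelled sgcMyc (0.18 ± 0.05), and its value in EOL-1 was 0.05. CCNA2, the cyclin of S phase and mitotic entry, fell in EOL-1 (-0.10 ± 0.03) and rose with the guides (0.17 ± 0.05). CDC25C, a phosphatase that activates CDK1, had the fewest counts of the 47 in EOL-1 and passed in none (-0.17, -0.18 and -0.17). With DESeq2 the 3 lower with shEZH2 remained, CCNB2 alone remained lower in EOL-1, and neither CDK1 nor CCNA2 passed with the guides.

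Of the 3 spindle and centrosome kinases, PLK1 and AURKA fell in both lines and none of the 3 changed with the cMyc guides. PLK1, which drives centrosome maturation and several later steps, stood at 172 and 176 CPM in EV and 148 and 151 CPM in shEZH2 (-0.22 ± 0.04, adjusted p = 0.0032). In EOL-1 it stood at 156 and 155 against 139 and 134 CPM (-0.18 ± 0.04, adjusted p = 9.4e-04). Neither pair of groups overlapped. Against 123 and 130.2 CPM in sgEV of MV4;11, the guide libraries held 119.6, 122, 127 and 124 CPM, the first pair just below the controls and the second within them (-0.04 ± 0.04, adjusted p = 0.51). AURKA, the spindle pole kinase, fell by 0.21 with shEZH2 and by 0.18 in EOL-1, and NEK2, a kinase that splits centrosomes, passed in none (-0.05, -0.15 and -0.04). With DESeq2 PLK1 passed in both lines and AURKA in neither.

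In the chromosomal passenger complex, which corrects wrong attachments and then moves to the midzone, the subunits did not move as one. BIRC5 (survivin) stood at 138 and 138 CPM in EV and 105 and 99.5 CPM in shEZH2 (-0.43 ± 0.05, adjusted p = 5.6e-05), while AURKB, the kinase subunit, held 51.7 and 52.8 against 48.4 and 49.9 CPM (-0.09 ± 0.06, adjusted p = 0.29). INCENP, the scaffold, fell in both lines (-0.20 and -0.16), and CDCA8 (borealin) fell in EOL-1 (-0.15) with -0.07 in MV4;11. BIRC5 in EOL-1 had 184 and 186 against 181 and 180.4 CPM (-0.03 ± 0.03, adjusted p = 0.52), and AURKB there had 53.8 and 51.8 against 50.9 and 52.8 CPM, which overlap. In the libraries labelled sgcMyc, BIRC5 rose (0.25 ± 0.05), from 83.3 and 78.0 CPM to 94.7, 96.9, 91.6 and 101 CPM. AURKB had 35.9 and 35.8 CPM in sgEV and 32.1, 33.3, 31.7 and 34.1 CPM with the guides, all lower without passing (-0.13 ± 0.06, adjusted p = 0.13). With DESeq2 BIRC5 kept its call with shEZH2 and with the guides, while INCENP passed in neither line and CDCA8 did not pass in EOL-1.

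Of the 5 spindle checkpoint genes, 3 fell in each line, BUB1B and BUB3 in both. BUB1B (BubR1, which holds CDC20 in the checkpoint complex) stood at 111 and 111 CPM in EV and 100.5 and 98.6 CPM in shEZH2 (-0.15 ± 0.05, adjusted p = 0.034), and in EOL-1 at 91.8 and 93.3 against 79.6 and 82.0 CPM (-0.20 ± 0.04, adjusted p = 0.0014). BUB3, its partner at the kinetochore, stood in EOL-1 at 391 and 393 against 334 and 337 CPM, with the smallest p of the 47 in that line (-0.22 ± 0.03, adjusted p = 1.9e-05). In MV4;11 BUB3 fell by 0.18. The replicate libraries of each group lay close together and the groups did not overlap. In the cMyc guide comparison BUB1B had 78.7 and 81.0 CPM in sgEV and 79.4, 75.7, 78.0 and 79.6 CPM with the guides (-0.03 ± 0.05, adjusted p = 0.65). BUB1, the kinase that recruits the others, rose there from 103 and 107 CPM to 129, 126, 127 and 119 CPM (0.26 ± 0.05, adjusted p = 8.7e-04), fell in EOL-1 (-0.16 ± 0.04) and stood at -0.05 with shEZH2. MAD2L1, the checkpoint protein that binds CDC20, fell with shEZH2 alone (-0.16), and the checkpoint kinase TTK passed in none (0.04, -0.04 and 0.13). With shEZH2 BUB1B and MAD2L1 lost their calls with DESeq2 (adjusted p = 0.22 and 0.21), with spike-in scaling (0.14 and 0.13) and when either shEZH2 library was left out, and BUB3 lost its call when either was left out. The 3 calls in EOL-1 held with DESeq2.

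The 7 centromere and kinetochore genes held the most varied patterns. CENPE, a kinesin that carries chromosomes to the spindle equator, stood at 39.0 and 36.6 CPM in EV and 29.6 and 30.4 CPM in shEZH2 (-0.34 ± 0.07, adjusted p = 0.0038, or 0.067 with DESeq2). It had the largest fall of the 47 in the libraries labelled sgcMyc, from 46.3 and 42.6 CPM to 34.4, 32.7, 32.7 and 29.4 CPM (-0.46 ± 0.07, adjusted p = 1.8e-04), and in EOL-1 its groups overlapped at 14.6 and 18.6 against 17.4 and 16.7 CPM. CENPF, a large outer kinetochore protein, fell in EOL-1 from 58.3 and 60.3 to 48.7 and 41.6 CPM (-0.39 ± 0.06, adjusted p = 3.2e-04), the largest change of the 47 in that line. It also fell in the libraries labelled sgcMyc, from 191 and 183 CPM to 148, 147, 169.7 and 140.3 CPM (-0.30 ± 0.07, adjusted p = 0.0043). With shEZH2 its groups overlapped, at 226 and 193 against 201 and 191 CPM. CENPA, the histone H3 variant that marks the centromere, rose with the cMyc guides from 25.3 and 27.9 CPM to 33.1, 32.5, 32.2 and 35.3 CPM (0.32 ± 0.07, adjusted p = 0.0039) and fell with shEZH2 (-0.20 ± 0.06). Of the 4 subunits of the NDC80 complex, the microtubule grip of the kinetochore, NDC80 fell with shEZH2 (-0.26 ± 0.06), and NUF2, SPC24 and SPC25 passed in none of the 3 comparisons. Their shEZH2 values were -0.01, -0.29 and -0.19, and SPC24 alone with sgcMyc_5 rose (0.38, adjusted p = 0.036). With DESeq2 none of CENPE, CENPA and NDC80 passed with shEZH2, while CENPF kept its call in EOL-1 and the 3 genes called with the guides kept theirs.

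The genes that start anaphase held the largest change of the study for these 47 genes. CDC20, the activator of the anaphase-promoting complex, stood at 131 and 147 CPM in EV and 73.0 and 73.4 CPM in shEZH2, 52.7% of the control (-0.93 ± 0.06, adjusted p = 1.2e-06). In EOL-1 it held 122 and 120.4 against 115 and 119.9 CPM (-0.04 ± 0.04, adjusted p = 0.44). Under the labels sgcMyc_1 and sgcMyc_5 its level rose, from 75.6 and 75.6 CPM to 88.7, 88.6, 95.6 and 96.3 CPM (0.29 ± 0.05, adjusted p = 3.5e-04). CDC20 thus fell, did not pass and rose in the 3 comparisons. ESPL1 (separase), the protease that cuts cohesin, fell in both lines: from 45.5 and 40.6 to 30.7 and 31.0 CPM with shEZH2 (-0.48 ± 0.07, adjusted p = 6.0e-04) and from 54.9 and 55.8 to 43.3 and 44.7 CPM in EOL-1 (-0.33 ± 0.05, adjusted p = 3.7e-05). PTTG1 (securin), which holds separase inactive, fell with shEZH2 from 58.9 and 67.1 to 47.9 and 49.4 CPM (-0.37 ± 0.07, adjusted p = 0.0023) and in EOL-1 by 0.17. In both genes and both lines the depleted libraries lay below their controls without overlap. UBE2C, the ubiquitin-conjugating enzyme of the complex, fell in EOL-1 (-0.13 ± 0.05, adjusted p = 0.048) and just missed the threshold with shEZH2 (-0.16 ± 0.06, adjusted p = 0.051). With DESeq2 CDC20, ESPL1 and PTTG1 kept their calls with shEZH2, and ESPL1 alone kept its call in EOL-1.

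In the 6 genes of chromosome condensation, SMC4, a core ATPase of condensin, was lower in every comparison, and it was the one gene of the 47 that fell in all 3. It stood at 366 and 357 CPM in EV against 309 and 306 CPM in shEZH2 (-0.23 ± 0.04, adjusted p = 9.5e-04). It stood at 435 and 428 CPM in sgEV against 349.9, 344, 359.7 and 354 CPM in the libraries labelled sgcMyc (-0.29 ± 0.04, adjusted p = 4.8e-05, or 0.070 with spike-in scaling). In EOL-1 it stood at 255 and 265 against 242 and 229.5 CPM (-0.14 ± 0.03, adjusted p = 0.0062). The groups did not overlap in any of the 3. SMC2, the other ATPase of the ring, fell in EOL-1 (-0.14) and stood at -0.05 with shEZH2 and 0.02 with the guides. NCAPG, a condensin I subunit, fell with shEZH2 (-0.21) and with the guides (-0.16), NCAPH fell in EOL-1 (-0.14), and NCAPD2 passed in none. TOP2A, the topoisomerase that untangles sister chromatids, stood at 602 and 572 CPM in EV against 540.5 and 538 CPM in shEZH2 (-0.12 ± 0.04, adjusted p = 0.040), at 480.02 and 478 against 466 and 443 CPM in EOL-1 (-0.08 ± 0.03, adjusted p = 0.093), and at 468 and 477 CPM in sgEV against 509.9, 495, 495 and 468 CPM with the guides. With DESeq2 SMC4 fell in all 3 comparisons, and no other condensation gene passed in any.

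Of the 6 spindle motors and microtubule proteins, 5 fell with shEZH2 and 4 in EOL-1. KIF4A, a chromosome-bound kinesin, fell with shEZH2 from 50.6 and 50.04 to 37.998 and 38.3 CPM (-0.40 ± 0.06, adjusted p = 5.2e-04) and by 0.14 in EOL-1. KIF11 (Eg5), the kinesin that pushes the poles apart, held 134 and 121 against 124 and 121 CPM with shEZH2, which overlap (-0.06 ± 0.05, adjusted p = 0.44). In EOL-1 KIF11 fell from 113 and 113 to 101 and 97.7 CPM (-0.18 ± 0.04, adjusted p = 0.0022), and with the cMyc guides it held 102, 100.4, 101 and 98.99 CPM beside 96.7 and 92.5 CPM in sgEV (0.09 ± 0.05, adjusted p = 0.15). KIF2C (MCAK), which depolymerizes microtubules at wrong attachments, fell by 0.26 and 0.18, and TPX2, an activator of AURKA, by 0.14 and 0.15 in MV4;11 and EOL-1. HMMR, a spindle assembly protein, fell with shEZH2 (-0.30 ± 0.05) and stood at 0.15 in EOL-1 (adjusted p = 0.072). NUSAP1, which bundles spindle microtubules, fell with shEZH2 (-0.18) and rose with the guides (0.24). With DESeq2 KIF2C, KIF4A and HMMR passed with shEZH2, KIF11, KIF2C and TPX2 in EOL-1, and NUSAP1 with the guides.

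All 6 genes of the midzone and cytokinesis fell in EOL-1, and 3 of them fell with shEZH2. ANLN (anillin), a scaffold of the contractile ring, stood at 117 and 109 CPM in EV against 75.5 and 74.8 CPM in shEZH2 (-0.59 ± 0.05, adjusted p = 1.3e-05). In EOL-1 it stood at 66.6 and 69.6 against 62.2 and 61.0 CPM (-0.15 ± 0.04, adjusted p = 0.021). In the libraries labelled sgcMyc it had the largest rise of the 47, from 86.4 and 87.2 CPM to 117, 113, 114 and 106 CPM (0.37 ± 0.05, adjusted p = 7.7e-05). ANLN thus changed in all 3 comparisons, without overlap in any, and not in 1 direction. PRC1, which bundles antiparallel microtubules of the midzone, fell in EOL-1 from 89.9 and 92.3 to 79.3 and 77.3 CPM (-0.22 ± 0.04, adjusted p = 6.1e-04) and by 0.19 in MV4;11. ECT2, the exchange factor that activates RhoA at the cleavage site, fell in EOL-1 from 39.3 and 40.4 to 35.0 and 34.6 CPM (-0.20 ± 0.05, adjusted p = 0.0089) and rose with the guides from 38.2 and 36.04 to 46.7, 48.01, 46.3 and 44.4 CPM (0.32 ± 0.06, adjusted p = 0.0013). RACGAP1, a centralspindlin subunit, fell in both lines (-0.24 and -0.18), while KIF23, the other subunit, and KIF20A, a midzone kinesin, fell in EOL-1 (-0.17 each), with -0.12 and -0.16 in MV4;11. With DESeq2 the 6 that fell in EOL-1 became 2, PRC1 and RACGAP1, since ANLN, KIF20A, KIF23 and ECT2 did not pass (adjusted p = 0.17, 0.20, 0.17 and 0.14). ANLN and RACGAP1 passed with shEZH2, and ANLN and ECT2 with the guides.

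**Figure D4:**
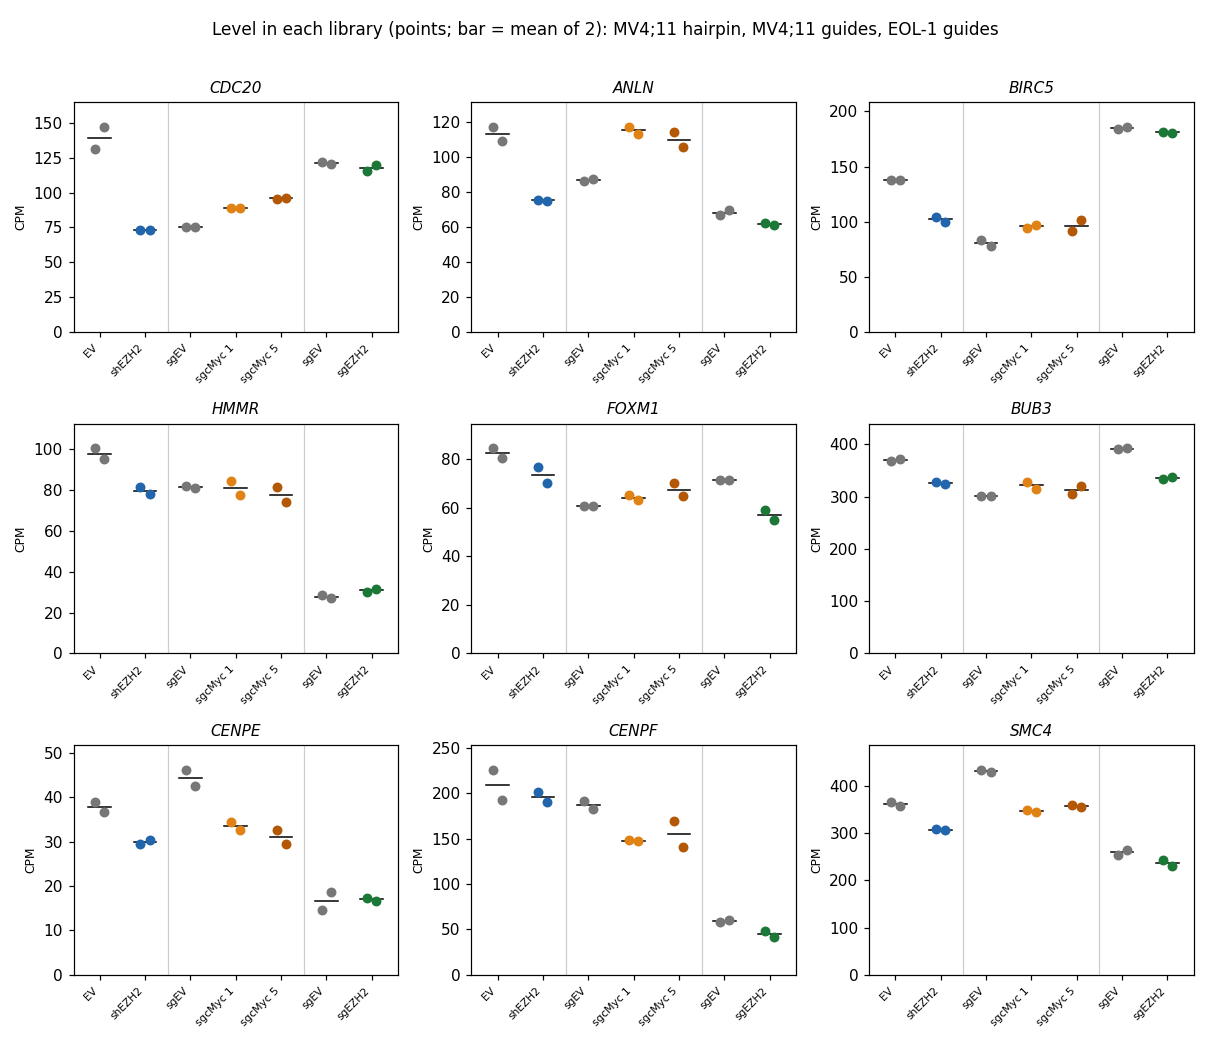
Level in CPM of 9 of the genes in each library (points) with the mean of the 2 libraries (bars), on axes that start at 0. From left to right: the hairpin set and the guide set of MV4;11, then EOL-1. CDC20 drops from 131 and 147 CPM in EV to 73.0 and 73.4 CPM in shEZH2, and SMC4 is lower than its control in all 3 sets.

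The lists of the EZH2 comparisons were of equal length and overlapped in part. In both lines 15 genes fell, 55.6% of each list: ANLN, CCNB2, PLK1, AURKA, BUB1B, BUB3, KIF2C, KIF4A, ESPL1, PTTG1, TPX2, PRC1, RACGAP1, INCENP and SMC4. Since 57.4% of the 47 fell in each line, this overlap is near what unrelated lists of this length would share. With DESeq2 7 of these passed in both lines: CCNB2, PLK1, BUB3, KIF2C, ESPL1, RACGAP1 and SMC4. A further 12 passed in MV4;11 without passing in EOL-1, 12 the other way, and 8 in neither. Those 8, AURKB, TTK, NUF2, SPC24, SPC25, NCAPD2, NEK2 and CDC25C, did not pass with the cMyc guides either. Over the 47 genes the log2 fold changes of the lines had a Pearson r of -0.08 and a Spearman rho of 0.00, beside 0.02 and 0.03 over 12632 genes tested in both. These describe genes, which are not independent replicates. The lines thus shared the direction of most genes but not the order of their changes. The methods of depletion also differed, a hairpin in one line and a guide in the other, so line and method cannot be told apart.

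The difference of the effects, MV4;11 minus EOL-1, was tested in one edgeR fit over both tables. It passed for 7 of the 47 genes, each more negative in MV4;11 (14.9%, where 14.1% of all genes passed in that direction), which is near the background, and for none in the other direction in edgeR or DESeq2, where 12.5% of all genes passed and FOXM1 was the 1 of the 47 at an unadjusted p under 0.05. CDC20 had the largest difference (-0.87 ± 0.07, adjusted p = 3.3e-07). It was followed by ANLN (-0.44 ± 0.07), HMMR (-0.44 ± 0.08), BIRC5 (-0.39 ± 0.05), CDK1 (-0.30 ± 0.06), KIF4A (-0.25 ± 0.07) and CCNB1 (-0.23 ± 0.05). In HMMR the libraries read 100.4 and 94.9 against 81.3 and 77.9 CPM in MV4;11 and 28.4 and 27.2 against 30.2 and 31.4 CPM in EOL-1, lower in the first pair and higher in the second. In CDK1 they read 121 and 127 against 107 and 99.6 CPM, and 114 and 114 against 119 and 117 CPM. The KIF4A difference (adjusted p = 0.019) was lost with DESeq2 (0.24) and without any of shEZH2 library 1, EOL-1 sgEV library 1 or EOL-1 sgEZH2 library 1. The other genes that passed in 1 line alone were not shown to differ between lines, among them CENPF (0.30 ± 0.13, adjusted p = 0.15) and FOXM1 (0.17 ± 0.08, adjusted p = 0.11).

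**Figure D5:**
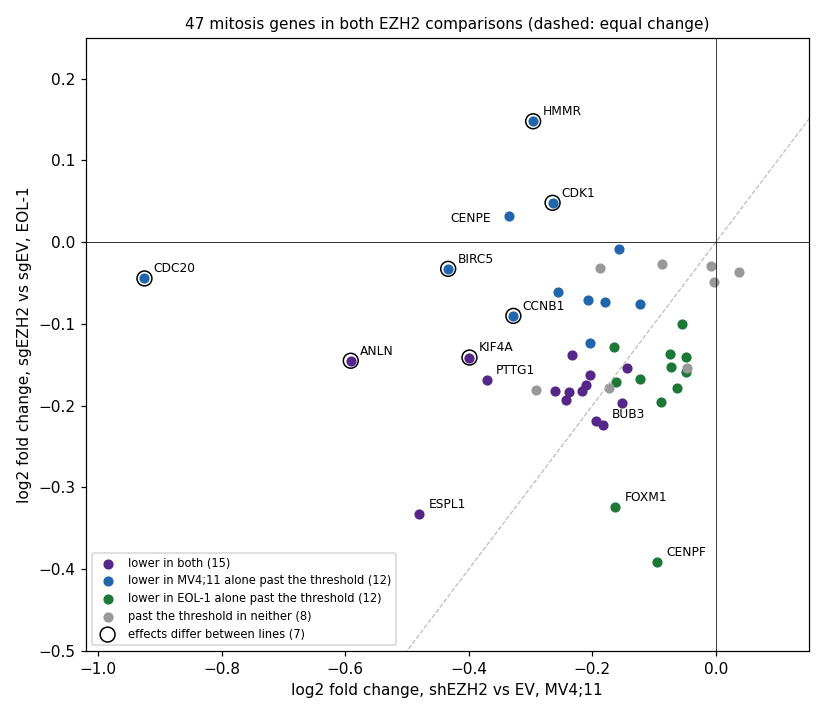
Log2 fold change of the 47 genes with shEZH2 in MV4;11 (x axis) against sgEZH2 in EOL-1 (y axis). Colours give the lines in which a gene fell at an adjusted p under 0.05, rings the 7 genes whose effects differ, and the dashed line equal change. CDC20 lies far to the left at -0.93 with -0.04 in EOL-1, and CENPF lies lowest at -0.39.

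The guides against cMyc were also taken one at a time, each against the same sgEV libraries. With sgcMyc_1, 10 genes rose (16.2% of all genes were higher) and 4 fell (16% lower). With sgcMyc_5, 9 rose (15.7% of all genes) and 3 fell (15.5%). With DESeq2 6 and 5 rose. With spike-in scaling 0 fell with sgcMyc_1, and 1 fell and 14 rose with sgcMyc_5. Leaving out 1 library, sgEV included, gave 4 to 14 higher and 2 to 4 lower with sgcMyc_1, and 4 to 13 higher and 2 to 4 lower with sgcMyc_5. With sgcMyc_1, 23 genes had both libraries above both sgEV libraries (34.8% of all genes) and 10 had both below (34.6%), and with sgcMyc_5, 22 (32.4%) and 7 (32.7%). CDC20 read 0.23 and 0.34 with the respective guides, ANLN 0.41 and 0.34, BUB1 0.28 and 0.23, ECT2 0.35 and 0.29, CENPE -0.41 and -0.52, and SMC4 -0.31 and -0.27. Tested directly, the guides differed in none of the 47 genes in edgeR or DESeq2, where 0.0789% of all genes were higher and 0.33% lower with sgcMyc_5. At an unadjusted p under 0.05 they differed in 1 of the 47, CDC20, higher with sgcMyc_5 by 0.11.

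Set beside each other, the perturbations of MV4;11 moved 9 of the 47 genes past the threshold in both. CDC20, ANLN, BIRC5, CDK1, CENPA and NUSAP1 fell with shEZH2 and rose in the libraries labelled sgcMyc, and CENPE, NCAPG and SMC4 fell in both. Against EOL-1, ANLN, CCNA2, BUB1 and ECT2 fell with sgEZH2 and rose with the cMyc guides, and CENPF and SMC4 fell in both. Of the 47 genes, 57.4% fell in each EZH2 comparison. Of the 9 that rose with the guides, 6 fell with shEZH2 and 4 in EOL-1. Of the 4 that fell with the guides, 3 fell with shEZH2 and 2 in EOL-1. Counts this small cannot be set apart from the 57.4%. With DESeq2 on both sides, CDC20, ANLN and BIRC5 kept the opposite calls and SMC4 the shared one in MV4;11, and against EOL-1 BUB1 kept opposite calls and CENPF and SMC4 shared ones. Under spike-in scaling the guide values of NCAPG (-0.04, adjusted p = 0.69), CENPF (-0.18, adjusted p = 0.23) and SMC4 (-0.18, adjusted p = 0.070) no longer passed, while CENPE did (-0.34, adjusted p = 0.030).

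The 2 controls of MV4;11 were not at the same level. When both tables were scaled together over 14153 genes, the 47 genes stood higher in EV than in sgEV by a median of 0.47 on the log2 scale (after adding 0.5 CPM), where the median of all genes was 0.01. In 44 of the 47 both EV libraries lay above both sgEV libraries, as in 37.9% of all genes, and in CENPE and SMC4 they lay below, as in 37.3%. The median of the 47 in the hairpin libraries, 0.31 above sgEV, thus lay between the controls, and 41 of the 47 stood above sgEV. This did not hold for every gene. In ANLN, ESPL1, CENPE and SMC4, among others, both shEZH2 libraries lay below the libraries of both controls. ANLN read 76.3 and 75.5 CPM in shEZH2 and 84.8 and 85.7 CPM in sgEV. CDC20 read 132 and 149 CPM in EV, 73.8 and 74.1 CPM in shEZH2 and 74.2 and 74.3 CPM in sgEV on this joint scale. BIRC5 read 139 and 139, 106 and 100.4, and 81.8 and 76.7 CPM in the same order. Construct, set and table differ together between EV and sgEV and cannot be told apart, so the levels of these sets are a description, and each change above is against its own control.

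Around the 47 genes, 135 other genes of mitosis in 7 lists were tested in the same fits. Their calls are from edgeR alone and were not checked under DESeq2, spike-in scaling or the other alternatives. Among the 47, the 27 lower calls became 15 (shEZH2) and 14 (EOL-1) with DESeq2. With the guides, spike-in scaling gave 3136 higher and 1169 lower over all genes, in place of 2590 and 2613. With shEZH2, 44 fell and 3 rose (median -0.11), where 14.2% of all genes were lower and 13.4% higher. In EOL-1, 48 fell and 5 rose (median -0.09), where 11.8% were lower and 15.1% higher. With the cMyc guides, 16 fell and 37 rose (median 0.09), where 18.7% were lower and 18.6% higher. The counts of the single lists that follow stand against the same shares. The other spindle and cytokinesis genes resembled the 47 in the EZH2 comparisons: 19 of 36 fell in each line and none rose. Examples in MV4;11 are the kinesins KIF18A (-0.50 ± 0.08) and KIF15 (-0.45 ± 0.07), and in EOL-1 CIT (citron kinase of the midbody, -0.51 ± 0.08) and NUMA1 (which anchors spindle poles, -0.29 ± 0.04). A list of 4 genes held other condensin subunits and MKI67, the coat of mitotic chromosomes, which is not a condensin subunit. Of these 4 genes 3 fell in each line, NCAPG2 of condensin II among them (-0.25 and -0.34). With the guides MKI67 fell (-0.73 ± 0.11) while NCAPG2 rose (0.18 ± 0.05).

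In the other kinetochore and centromere genes, 9 of 32 fell with shEZH2, 6 in EOL-1, and none rose in either line. Of these, CENPQ (-0.70 ± 0.12) and CENPN (-0.49 ± 0.08), inner kinetochore subunits, fell with shEZH2. With the guides 9 rose and 4 fell, and the values ran from -0.61 to 0.53. CENPM (0.53 ± 0.07) and ZWINT (0.43 ± 0.05) were among those that rose. CENPJ, a centriole protein counted in this list, went from 23.5 and 23.9 CPM in sgEV to 17.2, 15.9, 14.6 and 14.5 CPM with the guides. Among cohesin genes, RAD21, the subunit that separase cuts, fell in all 3 comparisons (-0.33 ± 0.04, -0.22 ± 0.03 and -0.47 ± 0.04 for shEZH2, EOL-1 and the guides). Of the 15 cohesin genes tested, 4 fell and none rose with shEZH2, 5 fell and 2 rose in EOL-1, and 4 fell and 3 rose with the guides, SGOL2 (shugoshin 2, a protector of cohesin) among the last (0.37 ± 0.05).

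Of the 17 subunits and regulators of the anaphase-promoting complex, 4 were lower and 1 higher with shEZH2, 5 lower and 3 higher in EOL-1, and 2 lower and 6 higher with the guides. In mitotic entry control, 3 of 12 fell and none rose in each line, including BORA, an activator of AURKA, with shEZH2 (-0.58 ± 0.07), and 2 rose with the guides. Of the 19 DREAM, MuvB and E2F regulators, 2 fell and 2 rose with shEZH2, 7 fell and none rose in EOL-1, and 1 fell and 8 rose with the guides. MYBL2 (B-MYB) fell in EOL-1 (-0.14 ± 0.03) and rose with the guides (0.29 ± 0.04). LIN54, the MuvB subunit that contacts the CHR, fell in EOL-1 (-0.31 ± 0.05), and the repressor E2F7 rose with the guides (0.74 ± 0.11) while TFDP2, an E2F partner, fell (-0.73 ± 0.11).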

How the data were processed

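Total RNA (Qiagen RNeasy) was sequenced from NEBNext Ultra II libraries, per the labels' protocols. Each of 3 tables, 1 per comparison, holds per library estimated counts per gene as deposited by the authors, and log2 values normalised by the authors. The EOL-1 table also has the authors' mean normalised signal per gene, which was not used. RSEM, DESeq and hg19 appear in the submitters' processing notes, and versions and further steps were not given in the sources used here. Columns were matched to samples from their shorter names by target, guide and replicate number.

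Estimated counts were rounded, spike-in rows (56 in each MV4;11 table, 0 in EOL-1) left out, genes filtered with filterByExpr, and libraries scaled by TMM. Groups were compared within each table with edgeR 4.0.16 (glmQLFit with the robust step, glmQLFTest, R 4.3.3), with Benjamini-Hochberg adjustment over all genes tested and a threshold of 0.05. SE was taken as the size of the log2 fold change over the root of F. The 2 EZH2 effects were compared by an interaction contrast in 1 fit over both tables. The fits were also run on counts simulated with a spread common to all genes. That setting is simpler than the data, so the run does not bear on the calls. The biological coefficient of variation was 0.0352 (shEZH2), 0.0422 (sgcMyc) and 0.0257 (EOL-1). No replicate was a copy: over genes of 20 or more counts, chi-square divided by its degrees of freedom ran from 1.47 to 5.47 between replicates. Alternatives were DESeq2 1.42.0, RLE and spike-in scaling, other filters, no robust step, limma 3.58.1 on the authors' log2 values, the replicate block and each library left out.

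The 47 genes, their roles and the 7 other lists were chosen with earlier results of these data known. Values in every library are given for an anchor of each role, fixed by name, for the 8 called members with the largest change in each comparison and for members whose effects differ between the lines. From other lists, up to 4 called genes with the smallest p may be named. EZH2 and MYC are given in every main comparison. Promoters are from RefSeq, GRCh38.p14. The tables' own build is hg19, so no gene coordinates were drawn from it.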

Additional observations from a re-analysis of the deposited data

Results flagged for a closer look

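The EZH2 effect differed between the lines, by the interaction test, in 7 of the 47 genes, each more negative with shEZH2 in MV4;11 than with sgEZH2 in EOL-1. That is 14.9% of the 47, where 14.1% of all genes passed in this direction and 26.5% in either, so the count is near the background. The differences in log2 fold change, MV4;11 minus EOL-1, were -0.87 for CDC20, -0.39 for BIRC5, -0.44 for ANLN, -0.44 for HMMR, -0.30 for CDK1, -0.23 for CCNB1 and -0.25 for KIF4A. Their adjusted p-values (edgeR) ran from 3.3e-07 for CDC20 to 0.019 for KIF4A. Of the 7, 6 passed under all 14 alternatives that were run, and KIF4A was the exception. ANLN and KIF4A fell in both lines, and the other 5 fell in MV4;11 without passing in EOL-1. Line and method of depletion differ together here and cannot be told apart.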

How the results depend on the processing

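Of the genes that fell with shEZH2, 11 passed under all 12 alternatives (among them CDC20, ANLN, ESPL1 and CCNB1), and 9 of those in EOL-1 under all 11 (among them FOXM1, CENPF and BUB3). With DESeq2 the genes lower came to 15 (shEZH2) and 14 (EOL-1), and those higher to 6 (sgcMyc_1) and 5 (sgcMyc_5). Spike-in scaling gave 17 lower with shEZH2, 1 lower and 15 higher for both guides, 0 lower with sgcMyc_1, and 1 lower and 14 higher with sgcMyc_5. Leaving out 1 library gave 14 to 31 lower with shEZH2 and 14 to 31 in EOL-1. It gave 2 to 5 lower and 6 to 17 higher for both guides, 2 to 4 lower and 4 to 14 higher for sgcMyc_1, 2 to 4 lower and 4 to 13 higher for sgcMyc_5, and 0 to 1 higher between guides. The difference of the lines then had 6 to 8 lower and 0 to 2 higher. Same-numbered libraries share only a number (correlations of deviations 0.04 to 0.16). With the replicate block, 31 fell with shEZH2 and 26 in EOL-1, 4 fell and 10 rose for both guides, and the difference of the lines had 9 lower and 1 higher. The sign turned only in values that had not passed. With spike-in scaling of the guides PLK1 read 0.076 and BUB1B 0.085. Leaving out 1 library gave -0.13 to 0.013 for KIF11 with shEZH2, -0.080 to 0.0022 for PLK1 with the guides and -0.13 to 0.22 for CENPE in EOL-1. The causes were not tested. The 2 libraries a group limit the precision, and the SE of the 47 genes was widest in CDC25C, which had few counts (0.12 with shEZH2 and 0.15 in EOL-1).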
